A study of Homo sapiens with 6 samples.

Results

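The smooth muscle contractile genes described here were TAGLN, CNN1, MYH11, MYLK, LMOD1, SMTN, MYOCD, CALD1, MYL9 and SYNPO2. They were chosen by name, with the actins left out, and each symbol was matched once among the 21134 genes of the deposited table. All 10 had reads in all 6 libraries, and all 10 passed the filter on low counts. The name stands for a group of genes and not for a cell type in these cultures.

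RNA was sequenced from hiPSC-CMs, cardiomyocytes that were differentiated from the line H9 with small molecules and then exposed to alcohol with or without losartan. The 2 control libraries had no treatment. The 2 alcohol libraries came from cells that received alcohol at 100 mM during 24 h. The 2 co-treated libraries came from cells that received the same alcohol dose plus losartan at 1 μM over the same time. Losartan blocks the angiotensin II receptor AT1R. The labels and the paper name H9 and call the cells induced pluripotent, whereas H9 is known as a line of human embryonic stem cells. No losartan-only group was analysed here, so an effect of losartan without alcohol cannot be told apart. The labels number the libraries of a group without naming separate cultures or differentiations, so p-values measure only the spread between these libraries, which may be technical.

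Smooth muscle contracts when calcium and calmodulin activate myosin light chain kinase (MYLK), which phosphorylates the regulatory light chain (MYL9) and so lets the smooth muscle myosin heavy chain (MYH11) pull on actin. Calponin (CNN1), caldesmon (CALD1), transgelin (TAGLN, also named SM22α), smoothelin (SMTN), leiomodin (LMOD1) and synaptopodin-2 (SYNPO2) bind the actin filaments. Myocardin (MYOCD) is a coactivator of serum response factor (SRF), which binds the CArG box in front of many of these genes. The heart uses part of this set too. MYOCD is active in cardiac as well as smooth muscle, and TAGLN and smooth muscle actin are transiently expressed in the embryonic heart.

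The CArG box is the sequence through which SRF and MYOCD act, so the RefSeq promoter windows (GRCh38.p14) were searched for its strict consensus, which has the same form on both strands. Windows of 300 bases, 250 before and 50 after a transcript start, were on hand for CALD1, CNN1, LMOD1, MYLK, SMTN and SYNPO2, 14 windows in all. TAGLN, MYH11, MYOCD and MYL9 had no window in the table. The box was found in 2 of the 14 windows, against 1.29% of the 35116 windows of all genes. Each is shown with 10 bases on either side, 5′ to 3′ on the strand of the gene and with the box in capitals.

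MYLK, chr3:123620623-123620652, minus strand: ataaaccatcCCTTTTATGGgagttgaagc
SMTN, chr22:31084942-31084971, plus strand: cggggccgggCCATATAAGGaaaagctagg

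The box of MYLK lay 94 to 85 bases before the start of its short internal transcript, whose product, telokin, is the C-terminal part of the kinase without the catalytic domain. That window lies within an exon of a longer MYLK transcript. The box of SMTN lay 44 to 35 bases before the start of an internal transcript of that gene. A match describes these letters only, and no binding was measured here.

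Levels between genes are given in FPKM, which takes out gene length and library size. In control cells MYL9 stood at 1238 ± 91.2 FPKM (SD, n = 2) and TAGLN at 912 ± 122 FPKM, ranks 26 and 50 of the 19609 genes above 0. CNN1 followed at 348 ± 97.4 FPKM, rank 155. These 3 genes were thus among the most abundant transcripts of the cultures. MYOCD (60.2 ± 2.49 FPKM), CALD1 (37.1 ± 6.67 FPKM) and LMOD1 (25.1 ± 1.03 FPKM) were in the middle of the group. SMTN (11.9 ± 1.70 FPKM), MYLK (10.4 ± 3.54 FPKM), SYNPO2 (5.59 ± 0.629 FPKM) and MYH11 (4.56 ± 0.304 FPKM) were the lowest. MYH11, which defines mature smooth muscle, ranked 9923, with 49.4% of the expressed genes below it.

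The order of the 10 mean levels was the same in control, alcohol and co-treated cells. SMTN and MYLK overlapped between libraries in all 3 groups. MYLK and SYNPO2 overlapped in alcohol and in co-treated cells, and TAGLN and CNN1 overlapped in alcohol cells. All other neighbours in the order were apart in every library of a group.

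**Figure D1:**
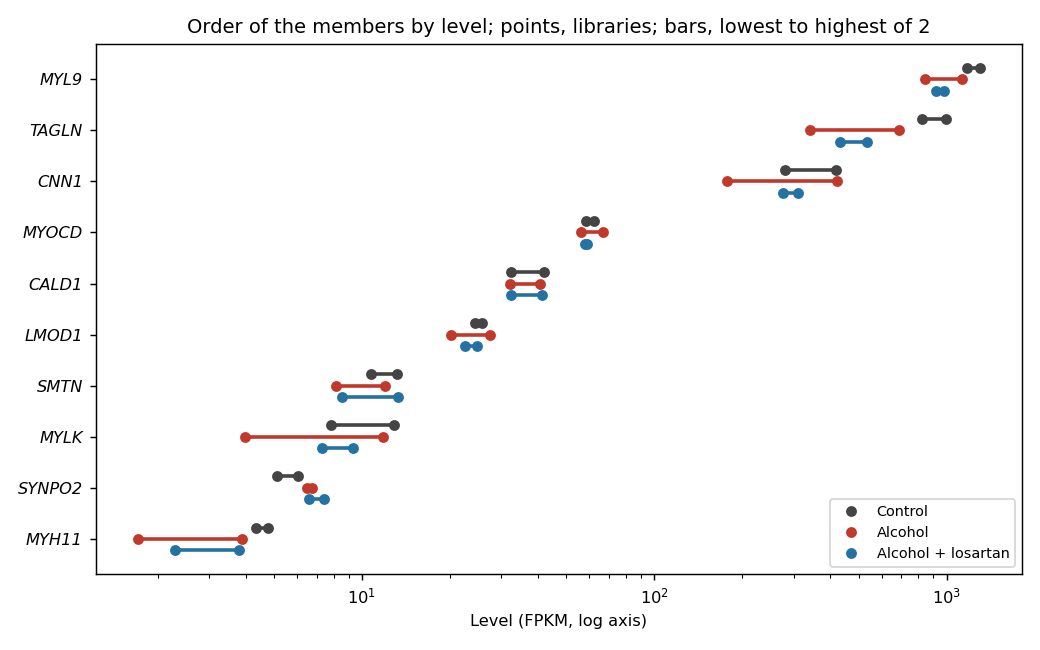
Level of each member in FPKM on a log axis; points are the 2 libraries of a group and bars join them. MYL9, TAGLN and CNN1 lie at or above 177 FPKM in every library, MYH11 lies at or below 4.77 FPKM, and the alcohol bars are the longest for TAGLN, CNN1, MYLK and MYH11.

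The cardiomyocyte label was checked against 10 markers, among them TNNT2, MYH7, ACTN2 and TTN. All 10 had reads in every library and they summed to 24788 to 25181 FPKM in control, 17789 to 24187 FPKM in alcohol and 20720 to 22544 FPKM in co-treated cells. The 9 mural markers, genes of pericytes and vascular smooth muscle other than the members, summed to 1032 to 1061, 602 to 842 and 655 to 671 FPKM. Most of that sum came from ACTA2 (203 to 580 FPKM) and DES (269 to 377 FPKM), which young cardiomyocytes also express. RGS5 was at 48.3 to 90.01 FPKM, MCAM at 18.7 to 40.2 FPKM, ABCC9 at 10.9 to 18.5 FPKM, and CSPG4, KCNJ8, NOTCH3 and PDGFRB were at or below 13.5 FPKM. No mural marker was at 0. The 10 fibroblast markers summed to 426 to 470, 486 to 519 and 472 to 521 FPKM, with TCF21 at 0.06 to 0.78 FPKM. The 6 endothelial markers summed to 6.27 to 7.16, 7.87 to 8.88 and 9.31 to 11.1 FPKM, with VWF at 0.00 to 0.11 FPKM. In bulk RNA fewer cells of a type and less RNA per cell cannot be told apart, and the part of cell composition in the differences that follow was not tested.

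The first comparison asked what alcohol did to these genes. TAGLN, MYL9 and MYH11 were lower in both alcohol libraries than in both control libraries, SYNPO2 was higher in both, and the other 6 members overlapped. At an adjusted p under 0.05 edgeR called 0 of the 10 members, where 0.0670% of the 14926 genes tested were called. The adjusted p is the Benjamini-Hochberg value over all genes tested. At an unadjusted p under 0.05, 3 members were lower and 0 higher, where 11.0% of all genes passed and 5.78% were lower. DESeq2 and limma called 0 members as well, with 2 members and 1 member at an unadjusted p under 0.05.

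TAGLN, an actin-binding protein and early marker of smooth muscle, was at 998 and 826 FPKM in control, 689 and 340 FPKM in alcohol, and 431 and 532 FPKM in co-treated cells. Both control libraries were above the other 4, and alcohol replicate 2 was the lowest. The log2 fold change of alcohol against control was -0.85 ± 0.26 (SE), a 1.81-fold lower level, with a 95% interval of -1.41 to -0.30 before adjustment. The difference missed the threshold (edgeR, adjusted p = 0.237). It leaned on alcohol replicate 2: the log2 fold change was -0.40 (adjusted p = 0.870) without that library and -1.49 (adjusted p = 0.00128) without alcohol replicate 1.

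MYL9, the regulatory light chain, was at 1174 and 1302 FPKM in control, 1132 and 842 FPKM in alcohol, and 919 and 976 FPKM in co-treated cells. The control libraries were above the other 4, by less than the gap between the 2 alcohol libraries. The log2 fold change was -0.36 ± 0.16 (SE), with an edgeR adjusted p of 0.423. Leaving out alcohol replicate 2 gave -0.12, and leaving out alcohol replicate 1 gave -0.62.

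MYH11, the heavy chain, was at 4.77 and 4.34 FPKM in control, 3.89 and 1.71 FPKM in alcohol, and 2.30 and 3.80 FPKM in co-treated cells. The estimated counts behind these values were 168, 152, 137, 58.3, 78.7 and 133. The control libraries were again above the other 4. The log2 fold change was -0.73 ± 0.32 (SE), with an edgeR adjusted p of 0.418. It moved to -0.22 without alcohol replicate 2 and to -1.49 (adjusted p = 0.0284) without alcohol replicate 1.

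**Figure D2:**
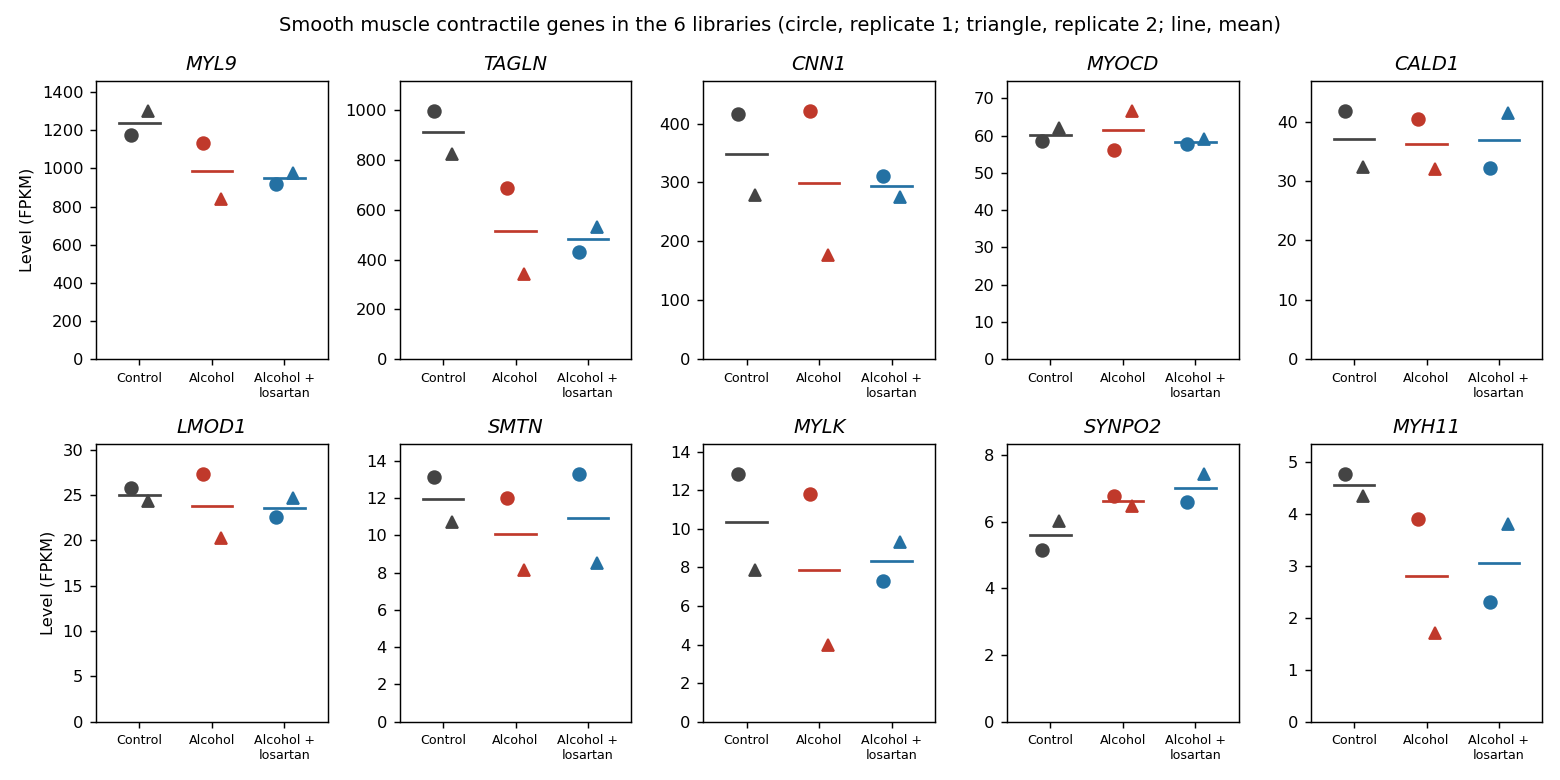
FPKM of each member in the 6 libraries on axes that start at 0; circles are replicate 1, triangles replicate 2 and lines the group means. Both controls lie above the other 4 libraries for MYL9, TAGLN and MYH11 and below them for SYNPO2, while MYOCD stays between 56.2 and 66.7 FPKM.

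Of the other genes of the contractile machinery, CNN1, an inhibitor of the actomyosin ATPase, was at 417 and 279 FPKM in control, 422 and 177 FPKM in alcohol, and 311 and 276 FPKM in co-treated cells. The alcohol libraries enclosed the control libraries. The log2 fold change was -0.24, with a 95% interval of -0.90 to 0.42. MYLK was at 12.9 and 7.86 FPKM in control, 11.8 and 3.99 FPKM in alcohol, and 7.31 and 9.30 FPKM in co-treated cells. It differed by -0.40 ± 0.37 (SE) on the log2 scale, again with overlap. Without alcohol replicate 1 the adjusted p was 0.0256 for CNN1 and 0.0289 for MYLK.

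CALD1 (32.1 to 41.8 FPKM over the 6 libraries), SMTN (8.13 to 13.3 FPKM) and LMOD1 (20.2 to 27.4 FPKM) overlapped between alcohol and control. Their log2 fold changes were -0.08, -0.29 and -0.11, with edgeR adjusted p-values from 0.708 to 0.914.

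SYNPO2, an actin-bundling protein of the Z-disc and of smooth muscle dense bodies, went the other way. It was at 5.14 and 6.03 FPKM in control, 6.77 and 6.48 FPKM in alcohol, and 6.58 and 7.44 FPKM in co-treated cells. The control libraries were below the other 4. The log2 fold change was 0.20 ± 0.15 (SE), with an edgeR adjusted p of 0.678, and its interval of -0.12 to 0.52 includes 0. Among all genes tested, 24.7% were higher and 17.7% lower without overlap in this comparison, so the 1 member above and the 3 members below are to be read against those shares.

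MYOCD, the coactivator that drives the other members in smooth muscle, varied least. It was at 58.5 and 62.0 FPKM in control, 56.2 and 66.7 FPKM in alcohol, and 57.7 and 59.0 FPKM in co-treated cells. The library with the lowest levels of TAGLN, CNN1, MYL9, MYLK and MYH11, alcohol replicate 2, held the highest MYOCD value. The log2 fold change of alcohol against control was -0.01, with a 95% interval of -0.27 to 0.24, and it turned to 0.02 in limma on FPKM. The interval leaves out changes beyond about that size in either direction but does not show that the level was equal.

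Over the 10 members 9 log2 fold changes were below 0 and the median was -0.27, where 50.6% of all genes were below 0 and their median was -0.0033. Without alcohol replicate 2 the count was 5 below and 5 above, and the median was 0.06. Without alcohol replicate 1 it was 8 below, with a median of -0.63, and 4 members, TAGLN, CNN1, MYH11 and MYLK, were called lower, where 1.42% of all genes were called in that fit. A fit without 1 alcohol library assumes that the lone library varies like the other groups. With all 6 libraries, 9 of the 14 paralogs tested, which are described below, were below 0 (median -0.10). Among the markers tested 5 of 10 cardiomyocyte (median -0.02), 6 of 9 mural (-0.17) and 4 of 9 fibroblast genes (0.10) were below 0.

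The 2 alcohol libraries stood far apart for several members. Alcohol replicate 2 was below alcohol replicate 1 by 1.64 for MYLK, 1.32 for CNN1, 1.25 for MYH11 and 1.10 for TAGLN on the scale of log2 CPM (counts scaled to library size). All 4 lay past the 5th percentile of the same difference over all genes, which was -0.65. MYL9 (-0.51), LMOD1 (-0.51), SMTN (-0.63) and CALD1 (-0.43) were also lower in replicate 2, within the 5th percentile. The summed FPKM of the 10 members was 2401 in alcohol replicate 1 and 1499 in alcohol replicate 2. The sums of the cardiomyocyte (24187 and 17789 FPKM), mural (842 and 602 FPKM) and fibroblast markers (519 and 486 FPKM) were lower in replicate 2 too, and that of the endothelial markers was higher (7.87 and 8.88 FPKM). Abundant genes carry these sums. By gene, 7 of 10 cardiomyocyte, 6 of 9 mural, 6 of 10 fibroblast and 4 of 6 endothelial markers were lower in replicate 2, against 9 of the 10 members. MYH6, NKX2-5 and RYR2 were higher in replicate 2, as were the mural markers RGS5, ABCC9 and PDGFRB. Among the markers that were lower, MYL2 was at 2610 FPKM in replicate 1 and 821 FPKM in replicate 2. ACTA2 was at 337 and 203 FPKM in that order. The part of these differences in those of the members was not tested.

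In control cells MYLK (-0.63) and CNN1 (-0.61) were the members with the largest differences between replicates, near the 5th percentile of -0.61. In co-treated cells MYH11 was 0.73 higher in replicate 2, past the 95th percentile of 0.52, and SMTN was 0.62 lower. The replicates were not near copies of each other: a chi-square test of the pair gave 4.54, 7.30 and 4.46 per degree of freedom in control, alcohol and co-treated cells, where counting noise by itself gives about 1.

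**Figure D3:**
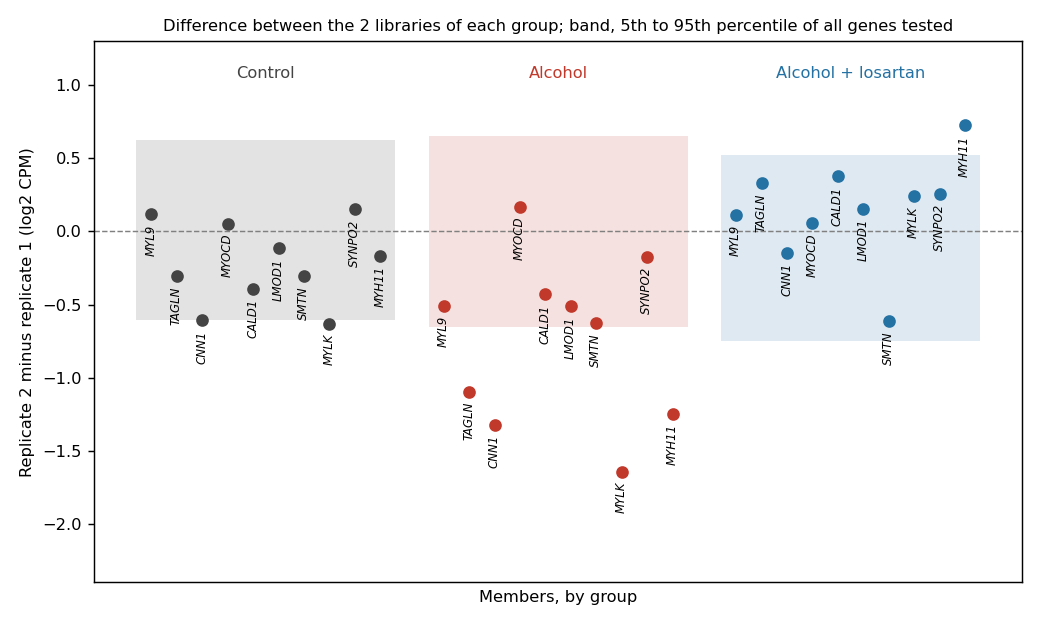
Difference between the 2 libraries of each group in log2 CPM for each member; bands span the 5th to the 95th percentile of all genes tested. MYLK, CNN1, MYH11 and TAGLN lie below the band in alcohol, whereas in co-treated cells MYH11 lies above it.

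The second comparison asked whether losartan altered the alcohol state. All 10 members overlapped between co-treated and alcohol libraries, where 18.0% of all genes were higher and 14.3% lower without overlap. By edgeR 0 of the 10 members were called, against 0.0134% of all genes, and 0 had an unadjusted p under 0.05, against 5.55% of all genes, 2.71% of them lower. DESeq2 and limma also called 0 and found 0 members at an unadjusted p under 0.05. Of the members 6 were below 0, against 49.7% of all genes, and on the FPKM scale 3 were. The median log2 fold change of the members was -0.01 and that of all genes 0.0023.

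The intervals show how much could have been missed. TAGLN differed by -0.12 on the log2 scale, with a 95% interval of -0.67 to 0.44. MYL9 differed by -0.07, with an interval of -0.42 to 0.27. MYH11 (0.11, interval -0.60 to 0.83), CNN1 (-0.06, interval -0.71 to 0.60) and MYLK (0.17, interval -0.64 to 0.97) had wide intervals. The co-treated libraries lay between the alcohol libraries for TAGLN, CNN1, MYLK, MYH11, MYL9, LMOD1 and MYOCD. For these genes the direction of the difference turned on which alcohol library was kept: for TAGLN the value was 0.52 with alcohol replicate 1 left out and -0.56 with alcohol replicate 2 left out.

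The third comparison set co-treated against control cells, 2 groups that differ by alcohol and losartan together. TAGLN, MYL9 and MYH11 were again below both control libraries and SYNPO2 above them, where 16.3% of all genes were lower and 27.1% higher without overlap. The control libraries are the same as in the first comparison, so the repeated pattern is not independent. By edgeR 0 of the 10 members were called, against 0.362% of all genes. An unadjusted p under 0.05 was found for 2 members, TAGLN and MYL9, against 12.6% of all genes, 6.37% of them lower. Of the 10 members 9 were below 0, against 50.2% of all genes, and the median was -0.22. The lean was not particular to the members: 13 of the 14 paralogs tested were below 0 (median -0.31). Among the markers tested 7 of 10 cardiomyocyte (median -0.23), 7 of 9 mural (-0.25) and 3 of 9 fibroblast genes (0.05) were below 0. DESeq2 and limma called 0 members and each had 2 at an unadjusted p under 0.05.

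TAGLN was 1.96-fold lower, a log2 fold change of -0.97 ± 0.26 (SE) with a 95% interval of -1.53 to -0.41 (edgeR, adjusted p = 0.127). Here the call depended on the fit. The adjusted p was 0.00683 when only the libraries of these 2 groups were used, 0.00490 without alcohol replicate 1 and 0.00657 without alcohol replicate 2. The size of the difference stayed between -1.14 and -0.81 over the 14 alternatives, with adjusted p-values from 0.00490 to 0.613. MYL9 differed by -0.43 ± 0.16 (SE), with an edgeR adjusted p of 0.273. MYH11 differed by -0.62 ± 0.32 (SE) and SYNPO2 by 0.27 ± 0.15 (SE), and both intervals included 0. MYOCD differed by -0.09, with an adjusted p of 0.807.

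**Figure D4:**
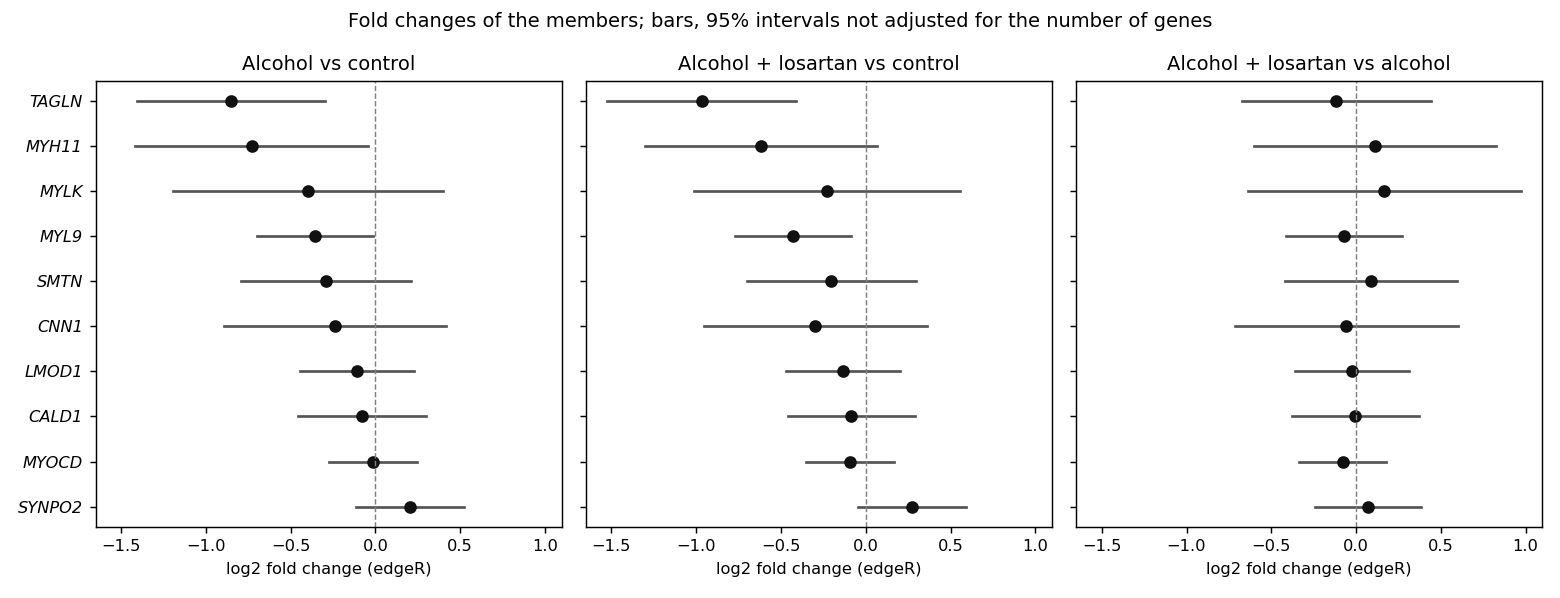
Log2 fold change of each member by edgeR in the 3 comparisons of groups; points are estimates and bars 95% intervals that are not adjusted for the number of genes. The TAGLN and MYL9 bars lie wholly below 0 in both comparisons with control, and the MYH11 bar does in alcohol against control. Every bar crosses 0 between co-treated and alcohol cells.

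Taking the 4 alcohol-exposed libraries together against the 2 controls, TAGLN had a log2 fold change of -0.91 ± 0.22 (SE), a 1.88-fold lower level in 4 of 4 libraries (edgeR, adjusted p = 0.0755, rank 197 of the genes tested). It crossed the threshold without alcohol replicate 1 (-1.23, adjusted p = 0.00029), without alcohol replicate 2 (-0.69, adjusted p = 0.0479) and with the replicate number as a block (-0.91, adjusted p = 0.0345), and missed it in the other 10 of 13 alternatives. Its adjusted p ranged from 0.00029 to 0.465. MYL9 (-0.39 ± 0.14, SE) and MYH11 (-0.67 ± 0.27, SE) were also lower in 4 of 4 libraries, with edgeR adjusted p-values of 0.209 and 0.291. SYNPO2 (0.24 ± 0.13, SE) was higher in 4 of 4, with an adjusted p of 0.455.

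In this comparison edgeR called 0 of the 10 members, against 0.556% of all genes, and 3 members were lower at an unadjusted p under 0.05, where 13.5% of all genes passed and 7.05% were lower. Without overlap 3 members were lower and 1 was higher, against 8.39% and 14.8% of all genes. DESeq2 and limma called 0 members, with 3 and 2 at an unadjusted p under 0.05. Without alcohol replicate 1 the members called were TAGLN, CNN1, MYH11, MYLK and MYL9, 5 of 10, where 2.63% of all genes were called in that fit. Of the members 9 were below 0, against 51.2% of all genes. The median of the members was -0.26 and that of all genes -0.0066, and the median of the members was -0.05 without alcohol replicate 2. With all 6 libraries, 12 of the 14 paralogs tested were below 0 as well (median -0.19). Among the markers tested 7 of 10 cardiomyocyte (median -0.16), 6 of 9 mural (-0.21) and 4 of 9 fibroblast genes (0.07) were below 0.

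Smooth muscle α-actin (ACTA2), the actin of the smooth muscle thin filament and one of the 9 mural markers, did pass the test. It was at 507 and 580 FPKM in control, 337 and 203 FPKM in alcohol, and 248 and 224 FPKM in co-treated cells. Both controls were above all 4 exposed libraries. ACTA2 fell by 1.25 ± 0.20 (SE) on the log2 scale in co-treated against control cells (edgeR, adjusted p = 0.0203, past the threshold in 9 of 14 alternatives, range 0.00026 to 0.349). Across the 4 exposed libraries it fell by 1.14 ± 0.16 (SE) (adjusted p = 0.0127, 9 of 13 alternatives, range 4.51e-05 to 0.117). In alcohol alone it differed by -1.04, with an adjusted p of 0.0797.

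The call was lost in both limma fits and without co-treated replicate 1 (adjusted p = 0.157 in co-treated against control, 0.0932 over the 4 exposed libraries) or without co-treated replicate 2 (0.349 and 0.117). In co-treated against control it was also lost without the expression filter (adjusted p = 0.0530). Of the other 8 mural markers 0 were called in any comparison by edgeR, with 2, 1, 4 and 4 at an unadjusted p under 0.05 in the 4 comparisons in the order above. Among all genes 11.0%, 5.55%, 12.6% and 13.5% passed in that order. DESeq2 called 3 of the 9 mural markers in co-treated against control and 1 over the exposed libraries, where it called 0.899% and 1.13% of all genes. The channel subunits KCNJ8 and ABCC9 had log2 fold changes of 0.57 and 0.45 and RGS5 and MCAM of -0.47 and -0.62 over the 4 exposed libraries, with adjusted p-values from 0.113 to 0.125. In the comparisons with control the number of mural markers called by edgeR rose when alcohol replicate 1 was left out. In co-treated against control it rose without alcohol replicate 2 as well. The number called among all genes rose too in these fits.

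The pathway that phosphorylates the light chain was followed in 14 genes: RHOA, ROCK1 and ROCK2, which inhibit myosin phosphatase, its subunits PPP1R12A, PPP1R12B and PPP1CB, its inhibitor PPP1R14A, the kinases DAPK3 and ILK, the calmodulin genes CALM2 and CALM3, and the light chains MYL6, MYL12A and MYL12B. By edgeR 0.0670%, 0.0134%, 0.362% and 0.556% of all genes were called in the 4 comparisons, in the order above. Of the 14 genes 0 were called in any comparison. Of them 12 were below 0 in alcohol against control, with 1 at an unadjusted p under 0.05, and 11 in co-treated against control, with 5. Over the 4 exposed libraries 14 of 14 were below 0 (median -0.16), with 5 at an unadjusted p under 0.05, but on the FPKM scale 12 of 14 were. Among all genes 50.6%, 50.2% and 51.2% were below 0 in these 3 comparisons, and 11.0%, 12.6% and 13.5% passed an unadjusted p of 0.05. DESeq2 called 1 of the 14 in alcohol against control, 2 in co-treated against control and 1 over the exposed libraries, and limma called 0. Among all genes DESeq2 called 0.839%, 0.899% and 1.13% in these 3 comparisons. In comparisons with control, edgeR called some of the 14 when an alcohol library was left out.

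MYL6, the essential light chain that pairs with MYL9 on smooth muscle and nonmuscle myosin, came nearest to the threshold. It was at 1096 and 1338 FPKM in control, 931 and 744 FPKM in alcohol, and 819 and 858 FPKM in co-treated cells, with no overlap between control and the rest. Its log2 fold change over the 4 exposed libraries was -0.57 ± 0.13 (SE), with an edgeR adjusted p of 0.0601. DAPK3, a kinase of the regulatory light chain and of myosin phosphatase, was at 52.4 and 46.6 FPKM in control, 55.1 and 49.2 FPKM in alcohol, and 37.3 and 25.9 FPKM in co-treated cells. Only the co-treated libraries were low. Its log2 fold change was -0.74 ± 0.16 (SE) against alcohol (adjusted p = 0.461) and -0.70 ± 0.16 (SE) against control (adjusted p = 0.0836).

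Around MYOCD, 9 of the 10 listed genes of SRF and its cofactors were tested, and KLF4, a repressor of this programme, was too low (0.00 to 0.34 FPKM). By edgeR 0 of the 9 were called in any comparison with all 6 libraries. Of all genes, 0.0670%, 0.0134%, 0.362% and 0.556% were, in the order above. These calls changed, among the 9 and among all genes, when an alcohol library was left out. At an unadjusted p under 0.05 there were 1 in alcohol against control and 3 in each of the other 3 comparisons. Among all genes 11.0% passed in alcohol against control and 5.55% in co-treated against alcohol. In co-treated against control 12.6% did, and over the exposed libraries 13.5%. DESeq2 called 1 in co-treated against control and 1 over the exposed libraries, where it called 0.899% and 1.13% of all genes, and limma called 0. In alcohol against control 5 were below 0 and 4 above (4 and 5 on the FPKM scale), and in co-treated against control 7 were below and 2 above. Among all genes 50.6% and 50.2% were below 0 in these comparisons. SRF was at 30.6 and 29.7 FPKM in control, 31.6 and 29.8 FPKM in alcohol, and 28.5 and 22.2 FPKM in co-treated cells. The lowest value was that of co-treated replicate 2. FHL2, a LIM protein that binds SRF, was at 275 and 236 FPKM in control, 365 and 313 FPKM in alcohol, and 416 and 441 FPKM in co-treated cells. Its groups did not overlap, and the log2 fold change of co-treated against control was 0.70 ± 0.14 (SE), with an adjusted p of 0.0506.

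For 5 members a nonmuscle or cardiac paralog was at a higher level per length. In control cells the cardiac light chain kinase gene MYLK3 was at 105 FPKM and MYLK at 10.4 FPKM. The cardiac leiomodin LMOD2 was at 149 FPKM and LMOD1 at 25.1 FPKM, and SYNPO2L was at 205 FPKM and SYNPO2 at 5.59 FPKM. The nonmuscle heavy chains MYH9 and MYH10 were at 50.3 and 54.2 FPKM, against 4.56 FPKM for MYH11, and SMTNL2 was at 33.5 FPKM, against 11.9 FPKM for SMTN. The order was the opposite for TAGLN (TAGLN2 at 21.0 FPKM), CNN1 (CNN2 at 29.8 and CNN3 at 103 FPKM) and MYL9 (MYL12A at 271 and MYL12B at 150 FPKM).

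Of the 18 paralogs 14 were tested, and TAGLN3, SMTNL1, MYLK2 and MYLK4 were too low. By edgeR 1 of the 14 was called, SYNPO2L in co-treated against control cells, where 0.362% of all genes were, and 0 in the other 3 comparisons. Over the exposed libraries DESeq2 called 1 of the 14, where it called 1.13% of all genes. Without alcohol replicate 1 edgeR called more of the 14 there, and more of all genes. SYNPO2L, a Z-disc protein of heart and skeletal muscle, was at 219 and 191 FPKM in control, 191.01 and 158 FPKM in alcohol, and 131 and 119 FPKM in co-treated cells. The co-treated libraries were below all others. SYNPO2L fell by 0.76 ± 0.14 (SE) on the log2 scale (adjusted p = 0.0445), while SYNPO2 in the same comparison was at 0.27 ± 0.15 (SE). The call held in 7 of 14 alternatives, with adjusted p-values from 9.64e-05 to 0.361, and was lost in both limma fits, without the expression filter, and without control replicate 1 (0.195), control replicate 2 (0.0730), co-treated replicate 1 (0.157) or co-treated replicate 2 (0.361). LMOD2 was at 161 and 138 FPKM in control, 195 and 206 FPKM in alcohol, and 133 and 151 FPKM in co-treated cells, and 0 of its contrasts passed the adjusted threshold.

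Not all members followed each other across the 6 libraries. Pearson's r of log2 CPM was 0.95 between TAGLN and MYL9, 0.95 between TAGLN and MYH11 and 0.96 between CNN1 and MYLK. MYOCD was at r = -0.64 with CNN1 and -0.66 with MYLK, and SYNPO2 at -0.36 with TAGLN. Of the 45 pairs 31 had r above 0. These values describe 6 libraries that share their groups, and alcohol replicate 2 is at an end of most of them.

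The genes outside the group whose log2 CPM was most like the mean of the members were GNPNAT1 (r = 0.992), SRA1 (0.992), FABP3 (0.990), MYL4 (0.989) and HSPA2 (0.987), over the same 6 libraries. FABP3, the fatty acid binding protein of heart, was at 463, 367, 430, 261, 325 and 360 FPKM in the order control, alcohol and co-treated. MYL4, the atrial essential light chain, was at 5719, 5496, 5749, 4187, 4774 and 5073 FPKM. In both, as in the mean of the members, alcohol replicate 2 was the lowest library. The genes were picked for this likeness from all genes tested, so the high r and the shared lowest library follow from the choice.

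The deposited gene length, which the counting program averages over transcripts by their abundance, moved in some members. For MYLK it was 2884 and 3095 bases in control, 3029 and 2951 bases in alcohol, and 3416 and 3132 bases in co-treated cells, a range of 18.5%. These lengths lie between that of the short telokin transcript (1447 bases in GENCODE) and that of the shortest of the matched full-length transcripts (5892 bases). The transcript set behind the deposited lengths is not given in the sources used here, and for CALD1 (4795 to 4918 bases) they exceed the longest matched GENCODE transcript (4281 bases), so the share of telokin in the FPKM of MYLK was not estimated. SYNPO2 varied by 4.65%, CALD1 and SMTN by 2.56%, and the others by no more than 0.31%.

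Some reads cannot be assigned with certainty. The strand setting of the libraries is not given in the sources used here, and genes on the opposite strand share exon bases with TAGLN (PCSK7, 446 bases), MYH11 (NDE1, 765 bases) and MYLK (MYLK-AS1, 133 bases). PCSK7 was at 14.7 to 19.6 FPKM, well under TAGLN. NDE1 was at 3.38 to 6.45 FPKM, the same range as MYH11, so the values of MYH11 are uncertain by that overlap. The estimated counts of MYH11 and SYNPO2 were not whole numbers in 6 of 6 libraries, which marks reads shared with other genes. Those of TAGLN and MYLK were not whole in 0 of 6 libraries, so the counts of these genes show no such sharing.

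In the RefSeq annotation of GRCh38.p14 the genes lie at chr11:117199294-117207465 (TAGLN), chr19:11538851-11550323 (CNN1), chr16:15703135-15857028 (MYH11), chr3:123610049-123884332 (MYLK), chr1:201896456-201946548 (LMOD1), chr22:31064118-31104624 (SMTN), chr17:12665890-12768949 (MYOCD), chr7:134711499-134970729 (CALD1), chr20:36541519-36551447 (MYL9) and chr4:118850681-119061247 (SYNPO2). MYH11, MYLK and LMOD1 are on the minus strand and the others on the plus strand.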

How the data were processed

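RNA was sequenced in 6 libraries of hiPSC-CMs. The submitters' processing notes name HISAT2 2.0.4, Bowtie2 2.2.5, RSEM 1.2.12 and hg38, without their roles. For each library the authors deposited the expected count of every gene (an estimate that need not be whole), the FPKM and the gene length. Expected counts summed to 4898287 to 5051448 per library, so a count of 3, the most that 0 allows, is 0.594 to 0.612 CPM (counting error only).

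Counts were rounded and tested with edgeR 4.0.16 (R 4.3.3): quasi-likelihood F test, TMM, filterByExpr, all 6 libraries in 1 fit, two-sided, Benjamini-Hochberg over 14926 genes at 0.05. Alternatives were DESeq2 1.42.0, limma 3.58.1 on log2(FPKM + 1) and log2(FPKM + 0.1), RLE size factors, leaving out the filter or raising it to 10 counts throughout, a replicate block, a fit of the compared groups alone, and each library left out. Members and gene lists were chosen with earlier results of these data known. Named genes are the 10 members, listed genes with an adjusted p under 0.05, paralogs, and the 5 genes most alike; MYL6, DAPK3, SRF, FHL2, KLF4, NDE1, PCSK7, MYLK-AS1 and the other markers given values were named after these were seen. A further gene of the light chain phosphorylation list is not reported here. MRTFA and MRTFB, listed as MKL1 and MKL2, were among the SRF cofactors. With 2 libraries against 2 an exact permutation test cannot go below p = 0.333, nor 4 against 2 below 0.0667, so none was used.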

Additional observations from a re-analysis of the deposited data

How the results depend on the processing

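With 2 libraries a group, 1 library can decide a result, and here it mattered which alcohol library was kept. Leaving out each library in turn gave 0 to 4 members called in alcohol against control, 0 to 1 in co-treated against control, 0 to 5 over the exposed libraries and 0 in co-treated against alcohol. The count rose to 1 (TAGLN) in co-treated against control with only the libraries of the groups compared, and to 1 (TAGLN) over the exposed libraries with the replicate block. The block called 0 members in the other 3 comparisons. The labels do not say whether the replicate numbers pair the libraries. Over all genes tested, same-numbered deviations correlated at 0.11 between control and alcohol, -0.02 between control and co-treated and 0.04 between alcohol and co-treated cells. These low values do not settle it. With the block 48, 5, 136 and 256 genes were called, in the order of comparisons that follows. Genes called among all tested ran from 0 to 220 in alcohol against control, 0 to 24 in co-treated against alcohol, 2 to 184 in co-treated against control and 0 to 407 over the exposed libraries, where the values reported were 10, 2, 54 and 83. The cause was not tested.

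Direction turned in small differences only, apart from fits that left out a library. In limma on log2(FPKM + 1) and log2(FPKM + 0.1), MYOCD was at 0.023 and 0.023 in alcohol against control, and in co-treated against alcohol CNN1 was at 0.10 and 0.10, LMOD1 at 0.0024 and 0.0030 and CALD1 at 0.020 and 0.021. With the block CNN1 was at 0.072 and CALD1 at 0.014 in co-treated against alcohol. Leaving out each library, log2 fold changes in alcohol against control ran from -1.04 to 0.28 for CNN1, -1.45 to 0.22 for MYLK, -0.38 to 0.13 for LMOD1, -0.099 to 0.080 for MYOCD and -0.30 to 0.14 for CALD1. In co-treated against alcohol they ran from -0.56 to 0.52 for TAGLN, -0.57 to 0.74 for CNN1, -0.39 to 0.87 for MYH11, -0.45 to 1.22 for MYLK, -0.26 to 0.24 for LMOD1, -0.26 to 0.43 for SMTN, -0.17 to 0.0073 for MYOCD, -0.21 to 0.22 for CALD1, -0.31 to 0.19 for MYL9 and -0.067 to 0.20 for SYNPO2. In co-treated against control they ran from -0.57 to 0.039 for CNN1, -0.51 to 0.12 for MYLK, -0.54 to 0.074 for SMTN and -0.29 to 0.12 for CALD1, and over the exposed libraries from -0.67 to 0.074 for CNN1, -0.84 to 0.047 for MYLK and -0.26 to 0.13 for CALD1. TAGLN, MYL9 and MYH11 were below control and SYNPO2 above it under every alternative run in the comparisons with control.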
